A study of Mus musculus with 23 samples.

Results

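The genes described here were the secreted protein families of the epididymis that were counted in epididymal fat RNA-seq. They were chosen by name from the count table: the beta-defensins (Defb), lipocalins (Lcn, without Lcn2), cysteine-rich secretory proteins (Crisp), whey acidic protein domain proteins (Wfdc), Kazal-type serine protease inhibitors (Spink) and ribonucleases (Rnase) that carry a number, the cystatins Cst8, Cst11, Cst12 and Cst13, and Gpx5, Adam7 and Adam28. The rule found 84 members among the 16962 genes of the table. These families were picked because their counts in these same pads were known to differ from mouse to mouse, so what follows on that pattern is a description without a test.

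The study asked how IL-6 made by pancreatic tumor cells bears on wasting of muscle and fat. All hosts were male C57BL/6J mice with an unedited genome, operated on at 8 weeks of age, and the libraries of a tissue came from different mice. No tumor mice had sham surgery; KPC mice received orthotopic tumor cells of 1 clone that carried a null CRISPR plasmid; KPC IL6KO mice received cells of 1 clone in which Il6 had been edited with CRISPR/Cas9. The edit is in the tumor cells, so counts in fat do not check it. Both lines came from a pancreatic tumor of a male mouse that carried Cre under the pancreatic Pdx1 promoter (Pdx1-Cre). All mice were euthanized when the KPC group had wasted. Epididymal fat was sequenced from 4 mice per group, numbered 5 to 8, and values for a group are given below in the order 5, 6, 7, 8. The quadriceps libraries analysed were 3 without tumor, 4 with KPC and 4 with KPC IL6KO tumors; a further muscle without tumor had been removed by the authors as an outlier and is not analysed here.

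The epididymis is the long coiled duct in which sperm mature, and the epididymal fat pad is attached to it and to the testis. The principal cells that line the duct secrete proteins which coat the sperm, and which proteins they make depends on the segment: caput, corpus and cauda each have their own set. Many of these genes need androgen. Gpx5 encodes a glutathione peroxidase without selenocysteine and is a classical marker of the caput. Crisp1 encodes a cysteine-rich secretory protein that binds to sperm and is known from the corpus and cauda.

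The 12 fat libraries held 26306377 to 56308545 counts, so that 3 counts, the largest number that a listed 0 allows, correspond to between 0.0474 and 0.123 CPM, the counts scaled to the size of the library with TMM, a factor that corrects for a few genes taking up much of it. No 2 of the 12 libraries agreed within sampling noise, the chi-square per degree of freedom over all 66 pairs being 66.2 or more. The labelled tissue was present in all pads: the 6 adipocyte genes looked at were counted throughout, Adipoq with 5297 to 81792 counts and Fabp4, the most abundant, with 24403 to 264803. Genes of other tissues were counted too. Seminal vesicle genes were nearly all in KPC IL6KO 5, where Svs2 had 1012435 counts against 0 to 234 elsewhere. Akr1b7, known from the vas deferens, had 123302 and 268793 counts in no tumor 6 and 8 and 97851 and 393964 in KPC IL6KO 5 and 8, and at most 1512 in the other pads. Des and Myh11, looked at with it, were also highest in those pads. Actg2, from the same list, was not: it had 56450 and 50950 counts in no tumor 5 and 7 and 38496 in KPC IL6KO 6. In the pads rich in Akr1b7, Actg2 had 6683 and 41622 counts in no tumor 6 and 8 and 8278 and 14400 in KPC IL6KO 5 and 8. Of the acinar genes of the pancreas 1 of 8 was in the table, Cela1, with 187 to 2332 counts. In whole tissue, fewer cells of a type and less RNA per cell cannot be told apart.

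Gpx5 and Crisp1 were counted in every pad, at levels that spanned orders of magnitude between mice of 1 group. Gpx5 had 960078, 1508, 1473372 and 304 counts in the no tumor pads, 967076, 1409923, 730215 and 656425 in the KPC pads and 3496, 1602732, 158 and 185 in the KPC IL6KO pads. Its counts were thus 656425 or more in no tumor 5 and 7, in KPC 5 to 8 and in KPC IL6KO 6, and 3496 or fewer in the other 5 pads. Crisp1 had 31888, 347520, 247484 and 918298 counts in the no tumor pads, 5337, 18323, 81365 and 163835 in the KPC pads and 25302, 12069, 407962 and 308572 in the KPC IL6KO pads. Its highest counts were in 2 no tumor pads, 6 and 8, and 2 KPC IL6KO pads, 7 and 8, which were the 4 pads with at most 1508 Gpx5 counts, and KPC IL6KO 5 was low in both. No tumor 7 was high in both. Within each of the no tumor and KPC IL6KO groups some pads were rich in Gpx5 and others in Crisp1, while the 4 KPC pads all had much Gpx5. The summed level of the 6 adipocyte genes was 3985, 24617, 1467 and 8955 CPM in the no tumor pads, 9956, 4756, 3079 and 2190 in the KPC pads and 4298, 5358, 16132 and 7324 in the KPC IL6KO pads. It was thus highest in no tumor 6 and KPC IL6KO 7, where Crisp1 was high. Of the pads outside the 4 with most Crisp1, only KPC 5 reached the level of no tumor 8 and KPC IL6KO 8. KPC 5 had 242257 Fabp4 counts against 198344 in no tumor 8, but 11096 of Adipoq against 62679 and 58685 of Cfd against 211365. Among all pairs of pads, each of the 6 adipocyte genes placed 34 to 43 in the same order as Crisp1 did. The same genes placed 20 to 29 pairs in the order of Gpx5. The part of fat content in the pattern was not tested.

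**Figure D1:**
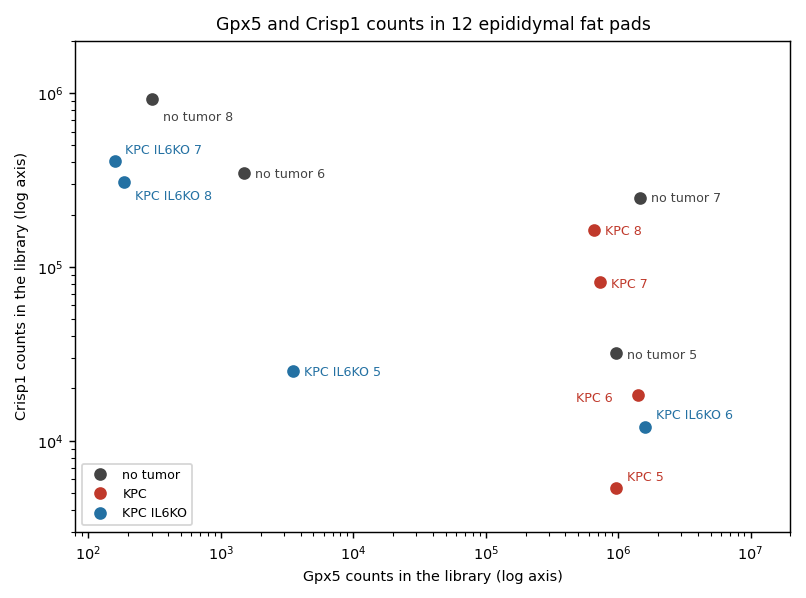
Raw counts of Gpx5 (horizontal, log axis) and Crisp1 (vertical, log axis) in the 12 epididymal fat libraries, 1 point per pad, coloured by group. The 7 pads on the right have 656425 to 1602732 Gpx5 counts, the 4 at the upper left have 308572 to 918298 Crisp1 counts, and KPC IL6KO 5 lies low on both axes.

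Together the 84 members took 10.7, 1.9, 10.2 and 3.46% of all counts in no tumor 5 to 8, 5.21, 8.41, 6.97 and 6.18% in KPC 5 to 8, and 0.163, 10.5, 2.83 and 1.54% in KPC IL6KO 5 to 8. Gpx5 alone made up 4.77% of KPC IL6KO 6. Per kilobase of exon Gpx5 was also the most abundant, at a mean of 12108 CPM per kilobase over the 12 pads, followed by Lcn8 with 5222 and Crisp1 with 3822.

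To sort the members, all 66 pairs of pads were formed. For each member the pairs were counted that its CPM placed in the same order as Gpx5 or as Crisp1. Such a count is itself a rank measure of agreement, and the split of the pads into rich and poor in Gpx5 weighs on it. A member with 50 or more counts in at least 1 pad was said to go with Gpx5 where it ordered at least 70% of the pairs as Gpx5 did and fewer as Crisp1, and the reverse for Crisp1. Gpx5 and Crisp1 themselves ordered 12 of the 66 pairs alike. Of the 84 members 32 went with Gpx5, 24 with Crisp1 and 27 with neither, and 1, Defb34 with at most 28 counts, was under the minimum. Gpx5 and Crisp1 themselves were counted in the 32 and the 24. Among all genes of the table with 50 counts, 18.9% went with Gpx5 and 15.7% with Crisp1 by the same rule. The family names chose the genes, but the pads' pattern chose the families, so nothing is read from this difference.

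**Figure D2:**
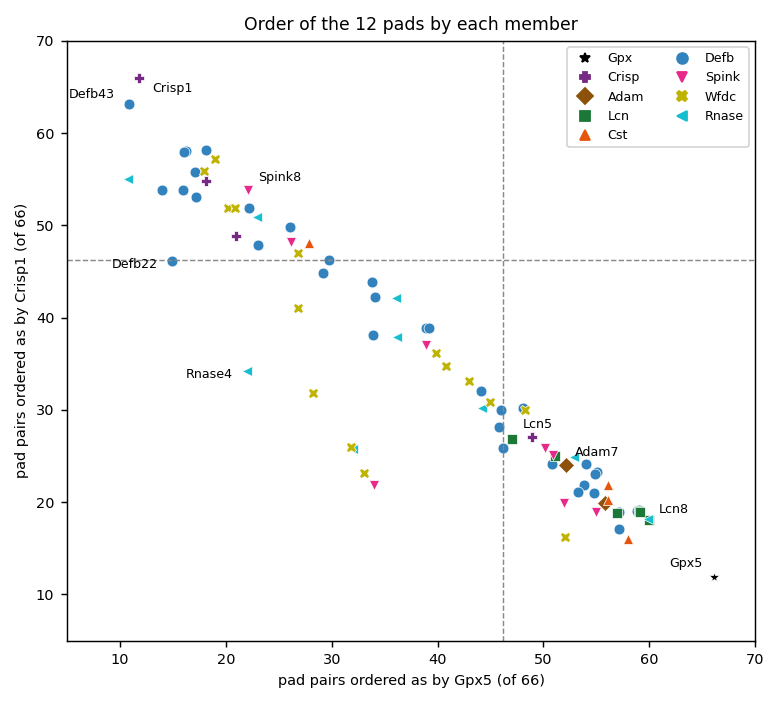
For each of the 84 members, the number of the 66 pad pairs ordered as by Gpx5 (horizontal) and as by Crisp1 (vertical), with a small jitter, marked by family; dashed lines are at 70% of the pairs. The 6 Lcn genes lie at the lower right, 3 of the 4 Crisp genes, Crisp1 itself among them, at the upper left, and the Defb genes run from one end to the other.

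The families split unevenly. All 6 lipocalins, both Adam genes and 3 of the 4 cystatins went with Gpx5. Of the 4 Crisp genes 3 were classed with Crisp1, and 1 of the 3 was Crisp1 itself. Crisp2 and Crisp3 both changed class when no tumor 8 was left out. The classes rest on the order of the pads. By the SD of the log2 count ratio 7 of the 32 members that went with Gpx5 kept closer to Crisp1. Among them were Adam7 (SD 4.88 to Gpx5 and 3.47 to Crisp1), Lcn12 (4.82 and 3.44) and Crisp4 (5.32 and 4.18). With CPM not corrected by TMM Lcn5 went with neither. The 35 beta-defensins divided into 11 with Gpx5, 11 with Crisp1, 12 with neither and the 1 under the minimum. Of the 8 Spink genes 4 went with Gpx5 and 2 with Crisp1, of the 15 Wfdc genes 2 and 5, and of the 9 ribonucleases 2 and 2.

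**Figure D3:**
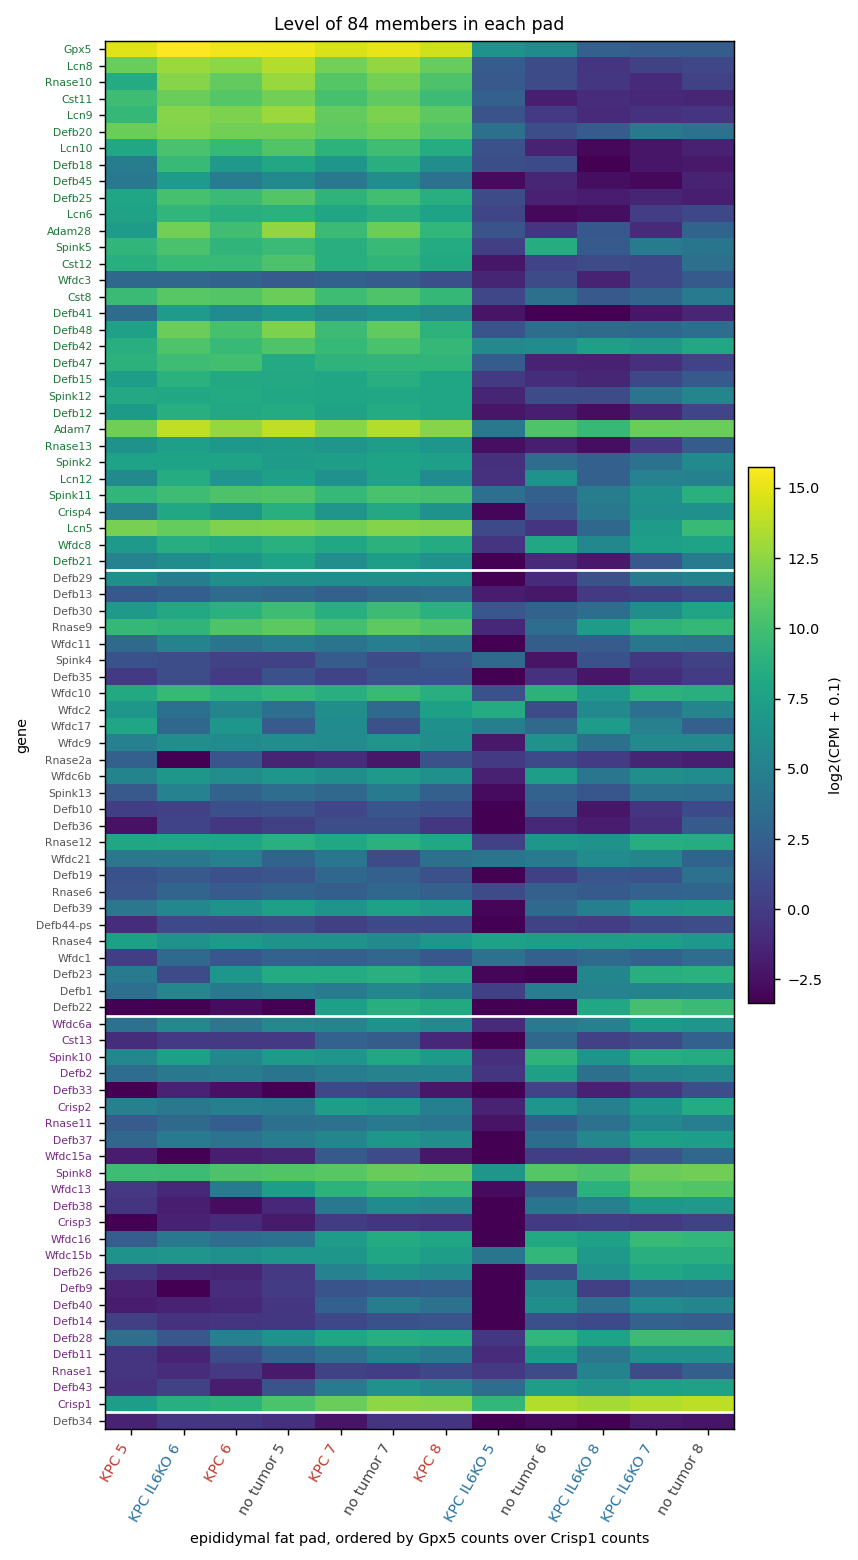
Level of each of the 84 members (rows) in each pad (columns) as log2(CPM + 0.1). Pads run from the highest to the lowest ratio of Gpx5 to Crisp1 counts, with label colours for no tumor (grey), KPC (red) and KPC IL6KO (blue); white lines separate members that went with Gpx5 (top), with neither, with Crisp1 and the 1 under 50 counts. The column of KPC IL6KO 5 is dark for most genes of all sets.

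The stretches just before the starts of 4 genes are shown because they carry the contrast: Gpx5 and Crisp1, which define the 2 patterns, and Defb47 and Defb43, which are neighbours among the members, on the same strand of chromosome 14, and of which the first was most abundant in pads rich in Gpx5 and the second in pads rich in Crisp1. They come from RefSeq windows on GRCm38.p6, 5′ to 3′ on the gene's strand; for Gpx5 the last 45 of the 250 bases were left out, since the GENCODE gene model begins within them. The Gpx5 stretch is chr13:21292732-21292936 (minus strand), that of Crisp1 chr17:40319208-40319457 (minus), that of Defb47 chr14:62997827-62998076 (plus) and that of Defb43 chr14:63011521-63011770 (plus). Capitals mark TATAAA in Crisp1 and the hexamer TGTTCT or its reverse complement AGAACA, the core that the androgen receptor recognizes, in Defb47 and Defb43.
Gpx5: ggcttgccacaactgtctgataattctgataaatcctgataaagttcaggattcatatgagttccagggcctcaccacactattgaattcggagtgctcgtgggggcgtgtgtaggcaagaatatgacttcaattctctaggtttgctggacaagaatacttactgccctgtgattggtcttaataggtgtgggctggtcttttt
Crisp1: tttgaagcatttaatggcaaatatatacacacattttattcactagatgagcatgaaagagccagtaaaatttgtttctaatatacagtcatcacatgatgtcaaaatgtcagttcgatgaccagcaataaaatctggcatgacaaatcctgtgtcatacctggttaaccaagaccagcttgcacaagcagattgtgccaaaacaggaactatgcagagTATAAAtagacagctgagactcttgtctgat
Defb47: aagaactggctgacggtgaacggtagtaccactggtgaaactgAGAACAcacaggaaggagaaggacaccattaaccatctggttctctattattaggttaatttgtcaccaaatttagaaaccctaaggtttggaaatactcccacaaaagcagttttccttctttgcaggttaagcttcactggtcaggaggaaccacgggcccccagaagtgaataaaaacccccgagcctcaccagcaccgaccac
Defb43: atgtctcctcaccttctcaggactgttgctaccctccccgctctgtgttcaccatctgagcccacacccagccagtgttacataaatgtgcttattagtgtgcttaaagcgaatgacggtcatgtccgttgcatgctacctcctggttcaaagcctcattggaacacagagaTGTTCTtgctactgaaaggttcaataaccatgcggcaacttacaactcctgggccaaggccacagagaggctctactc

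Promoter windows were found for 59 of the 84 members, 69 windows in all. TGTTCT or AGAACA stood within 250 bases before the start in 33.3% of the members' windows and in 16.1% of the 32851 windows of all genes. By class it was in 39.3% of 28 windows of members that went with Gpx5, 22.2% of 18 with Crisp1 and 34.8% of 23 with neither. TATAAA or TTTATA was in 14.5% of the members' windows and 12.4% of all. CCAAT or ATTGG was in 39.1% of the members' windows and 33.8% of all, and AGGAAG or CTTCCT, the letters bound by ETS factors such as PEA3, in 34.8% and 29.5%. The hexamer of the androgen receptor was thus present beside genes of both patterns, as the Defb47 and Defb43 stretches show. Such matches describe letters and do not show binding.

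The lipocalins carry small hydrophobic molecules. Lcn8 was the most abundant, and with Rnase10 it was the member most like Gpx5, at 60 of 66 pairs. Lcn8 had 291296, 59, 282201 and 97 counts in the no tumor pads, 97382, 207951, 103931 and 78509 in the KPC pads and 177, 217231, 43 and 21 in the KPC IL6KO pads. Lcn9 and Lcn10 followed the same pads at 59 pairs each. Lcn9 had 188136, 25, 173367 and 41 counts in the no tumor pads, 22788, 138600, 68506 and 59782 in the KPC pads and 118, 144680, 19 and 13 in the KPC IL6KO pads. Lcn10 had 37867, 8, 41761 and 15 counts in the no tumor pads, 8783, 24714, 15146 and 10758 in the KPC pads and 105, 36244, 4 and 1 in the KPC IL6KO pads. Lcn6, at 57 pairs, had 6637 to 17176 counts in the 7 pads rich in Gpx5 and 1 to 103 in the others. Lcn12 was lower and flatter, with 51 pairs and 23 to 10249 counts.

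Lcn5, which encodes the epididymal retinoic acid binding protein, was the member just inside the threshold for Gpx5, at 47 pairs. Lcn5 had 112041, 18, 202624 and 47327 counts in the no tumor pads, 124504, 152168, 102362 and 132804 in the KPC pads and 73, 70536, 4892 and 288 in the KPC IL6KO pads. It differed from Lcn8, Lcn9 and Lcn10 in no tumor 8, which had 47327 Lcn5 counts beside 304 of Gpx5, and in KPC IL6KO 7, with 4892 beside 158. In no tumor 6, also poor in Gpx5, there were 18.

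Ratios of raw counts within a library do not depend on its depth and show how closely a member followed. Lcn8 ranged from 39.1 to 319 counts per 1000 Gpx5 counts over the 12 pads, although Gpx5 itself ranged from 158 to 1602732. Cst11 had 83.1, 3.98, 63.9 and 65.8 counts per 1000 Gpx5 counts in the no tumor pads, 31.4, 42.6, 48.5 and 41.4 in the KPC pads and 66.1, 52.3, 69.6 and 75.7 in the KPC IL6KO pads. The SD over the pads of the log2 ratio to Gpx5 was 0.94 for Lcn8, 0.96 for Lcn10, 1.02 for Defb25, 1.08 for Lcn9, 1.13 for Rnase10 and 1.15 for Cst11. The same SD of the ratio to Crisp1 was between 7.2 and 7.69 for these 6 genes. Outside no tumor 6, the few counts of these genes in pads poor in Gpx5 thus kept ratios of the order seen in the rich pads. No tumor 6 had the lowest ratio for all of them but Rnase10, for Cst11 3.98 against 31.4 to 83.1 in the rich pads. Some of these ratios rest on few reads, such as 1 count of Lcn10 in KPC IL6KO 8 and 6 of Cst11 in no tumor 6. Lcn5 did not keep a ratio: it ran from 11.9 to 155681 per 1000 Gpx5 counts, with an SD of 4.09.

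**Figure D4:**
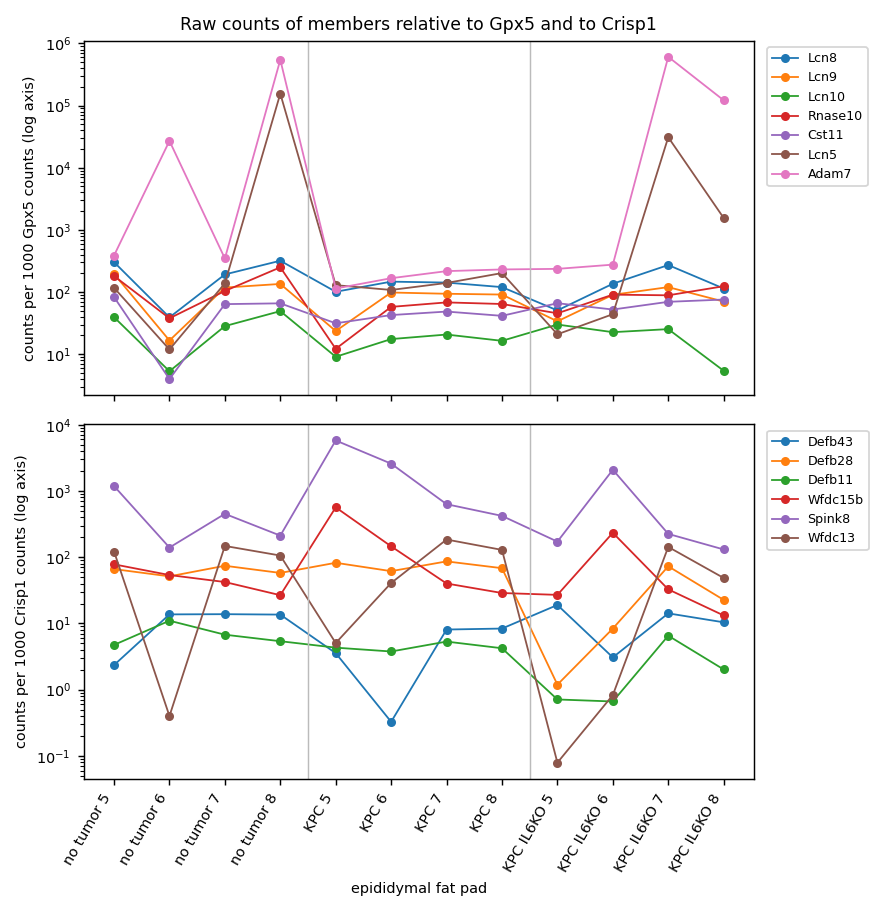
Raw counts per 1000 Gpx5 counts (top) and per 1000 Crisp1 counts (bottom) of named members in each pad, on log axes; grey lines separate the groups. Lcn8, Lcn9, Lcn10, Rnase10 and Cst11 run flatter in the upper panel than Adam7 and Lcn5, which rise by orders of magnitude in no tumor 8 and KPC IL6KO 7.

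Cystatins inhibit cysteine proteases, and the members here belong to the reproductive subgroup. Cst11 had 79830, 6, 94083 and 20 counts in the no tumor pads, 30396, 60073, 35400 and 27155 in the KPC pads and 231, 83766, 11 and 14 in the KPC IL6KO pads. Cst12 and Cst8 went with Gpx5 as well, at 56 pairs each, with 9300 to 34174 and 20072 to 67588 counts in the same 7 pads. Elsewhere Cst8 had 63 to 1523 and Cst12 5 to 833. Cst13 by contrast had 20, 239, 209 and 380 counts in the no tumor pads, 16, 30, 190 and 10 in the KPC pads and 0, 25, 70 and 38 in the KPC IL6KO pads, and went with Crisp1 at 48 pairs.

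Adam7 and Adam28 encode membrane proteins of the ADAM family. Adam7, which is made by the epididymis and transferred to sperm, ordered 52 pairs as Gpx5. Adam7 had 371817, 40803, 511261 and 166003 counts in the no tumor pads, 109983, 235106, 158519 and 151705 in the KPC pads and 824, 442955, 96312 and 22555 in the KPC IL6KO pads. No tumor 8 thus had 166003 Adam7 counts beside 304 of Gpx5, and KPC IL6KO 5 had the fewest. Adam28 had 152069, 19, 119173 and 453 counts in the no tumor pads, 4832, 34168, 24018 and 19038 in the KPC pads and 118, 95643, 13 and 124 in the KPC IL6KO pads. Adam28 followed Gpx5 closely, at 56 pairs, and was nearly absent from no tumor 6 and KPC IL6KO 7.

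Ribonuclease family members of the epididymis include Rnase9 and Rnase10, which lack the activity of the digestive enzyme. Rnase10 had 174058, 57, 152891 and 76 counts in the no tumor pads, 11806, 81350, 49713 and 42131 in the KPC pads and 159, 145470, 14 and 23 in the KPC IL6KO pads. Rnase13 also went with Gpx5, with at most 310 counts outside the 7 pads. Rnase9 had 48148, 314, 89948 and 41161 counts in the no tumor pads, 23008, 50825, 33908 and 43893 in the KPC pads and 15, 16859, 18500 and 4558 in the KPC IL6KO pads. Rnase9 was plentiful both in pads rich in Gpx5 and in no tumor 8 and KPC IL6KO 7, and nearly missing from no tumor 6 and KPC IL6KO 5, so it went with neither. Rnase11 went with Crisp1, from 4 counts in KPC IL6KO 5 to 1904 in no tumor 8. Rnase1, the pancreatic-type enzyme, was classed with Crisp1 at 55 pairs on few counts: it had 1295 in KPC IL6KO 8 and at most 348 elsewhere. Rnase4 was the most even member, with 2087 to 7824 counts, and its value is uncertain, since 4.67% of its possible 75-base reads are shared with Ang, whose exons it overlaps on the same strand.

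Beta-defensins are small cationic peptides, and those of the epididymis coat sperm. Defb20 had the most counts of all defensins. Defb20 had 80584, 68, 131087 and 901 counts in the no tumor pads, 98821, 112583, 62065 and 44062 in the KPC pads and 522, 129270, 658 and 139 in the KPC IL6KO pads. Defb18 and Defb45 were as alike to Gpx5 as Lcn9, at 59 pairs. Defb18 had 6715, 52, 17676 and 9 counts in the no tumor pads, 915, 4141, 3179 and 2093 in the KPC pads and 95, 22552, 4 and 0 in the KPC IL6KO pads. Defb45 had 436 to 4011 counts in the 7 pads rich in Gpx5 and 1 to 16 in the others. Defb25, for which no promoter window was matched, had 8369 to 42324 and 6 to 83.

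Of the defensins that went with Crisp1, Defb43 was the most alike of all members, at 63 of 66 pairs. Defb43 had 75, 4752, 3418 and 12468 counts in the no tumor pads, 19, 6, 658 and 1371 in the KPC pads and 481, 37, 5810 and 3221 in the KPC IL6KO pads. Relative to Crisp1 it ranged from 0.327 Defb43 counts per 1000 of Crisp1 in KPC 6 to 19.0 in KPC IL6KO 5, with 13.7, 13.8, 13.6 and 14.2 in no tumor 6, 7 and 8 and KPC IL6KO 7. Defb28 had 2110, 17874, 18390 and 53196 counts in the no tumor pads, 440, 1128, 7042 and 11186 in the KPC pads and 30, 101, 29721 and 7005 in the KPC IL6KO pads. Defb11 had 151, 3839, 1672 and 4946 counts in the no tumor pads, 23, 69, 433 and 691 in the KPC pads and 18, 8, 2666 and 624 in the KPC IL6KO pads. Defb28 and Defb11 were both low in KPC IL6KO 5, where Crisp1 still had 25302 counts. Defb40, at 58 pairs, had the most counts in no tumor 8, with 2560, and Defb9, at 56 pairs, in no tumor 6, with 1234. Both had 0 counts in KPC IL6KO 5, which allows up to 3. Counts of Defb2, Defb10 and Defb11 are uncertain, since up to 12.1% of the possible 75-base reads of a gene are shared among them.

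Defb22, the mouse counterpart of the defensin that forms much of the sperm surface coat, was found in 6 pads. Defb22 had 0, 0, 18144 and 52568 counts in the no tumor pads, 0, 2, 5230 and 9279 in the KPC pads and 0, 0, 37627 and 8853 in the KPC IL6KO pads. Counts were highest in no tumor 8 and KPC IL6KO 7, lower in no tumor 7, KPC 7, KPC 8 and KPC IL6KO 8, and at 0 to 2 in the other 6 pads, where a 0 allows up to 3 counts. No tumor 6, with 347520 Crisp1 counts, had none. At 46 pairs it was just outside the threshold for Crisp1. Defb23, in the same cluster as Defb22 on chromosome 2, was like it in no tumor 6, with 0 counts, but had 8206 in no tumor 5 where Defb22 had 0. Defb26 went with Crisp1, with 11965 counts in no tumor 8, 65 in no tumor 6 and 0 in KPC IL6KO 5.

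Crisp genes other than Crisp1 were far lower. Crisp2, better known from the testis, had 11 to 21699 counts, the most in no tumor 8, and went with Crisp1 at 49 pairs. Crisp3 was the member just above the count minimum, with at most 76. Crisp4 had 9838, 99, 12212 and 4910 counts in the no tumor pads, 1217, 4101, 2956 and 2739 in the KPC pads and 1, 7985, 2591 and 641 in the KPC IL6KO pads. Crisp4, another epididymal member, went with Gpx5 at 49 pairs, yet no tumor 8 and KPC IL6KO 7, both poor in Gpx5, had 4910 and 2591 counts of it.

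Spink proteins inhibit serine proteases. Spink8 had 37875, 48527, 111740 and 194565 counts in the no tumor pads, 30951, 47416, 51422 and 69017 in the KPC pads and 4341, 25263, 91590 and 40300 in the KPC IL6KO pads. Spink8 went with Crisp1 at 54 pairs but kept 4341 counts or more in every pad, the fewest in KPC IL6KO 5. Spink11 had 37606, 163, 52945 and 28043 counts in the no tumor pads, 20611, 48903, 21060 and 34171 in the KPC pads and 505, 25855, 2997 and 827 in the KPC IL6KO pads. Spink11 went with Gpx5 at 50 pairs and was at 28043 in no tumor 8. Spink5, with 55 pairs as Gpx5, had 10107 counts in no tumor 6 and 1065 in no tumor 8. Spink13, which went with neither, had 2 to 1041 counts.

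The Wfdc proteins are protease inhibitors of the whey acidic protein type. Wfdc13 had 3877, 139, 36687 and 97083 counts in the no tumor pads, 27, 747, 15044 and 21194 in the KPC pads and 2, 10, 58208 and 15000 in the KPC IL6KO pads. Wfdc13 had 52 pairs as Crisp1, with little in no tumor 6 and 10 counts in KPC IL6KO 6. Wfdc16 had 351, 9047, 14384 and 40496 counts in the no tumor pads, 177, 384, 4438 and 7306 in the KPC pads and 0, 616, 26407 and 6287 in the KPC IL6KO pads. Wfdc16 and Wfdc15b were the Wfdc genes most like Crisp1, at 57 and 56 pairs. Wfdc15b had 684 to 24485 counts, the most in no tumor 8 and 6. Wfdc10 went with neither, with 10472 to 31554 counts in 10 pads, 3695 in KPC IL6KO 8 and 112 in KPC IL6KO 5. Wfdc8 went with Gpx5 at 48 pairs though it had 7805 and 13219 counts in no tumor 6 and 8; its exons overlap those of Wfdc6b on the other strand. Wfdc6a was just inside the threshold for Crisp1 at 47 pairs, but 41.9% of its possible 75-base reads also match Wfdc6b, so the split between these 2 genes is uncertain.

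Just outside the threshold for Gpx5, with 46 pairs each, were Defb30, Defb13 and Defb29. Defb30 had 13987 counts in no tumor 8 and 189 in no tumor 6. Defb1 was just outside for Crisp1 at 46 pairs, with 45 to 2751 counts.

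No tumor 6 and no tumor 8 were both poor in Gpx5 and rich in Crisp1, yet differed widely in some other members. Of the 83 members with 50 counts 18 had at least 10-fold more CPM in no tumor 8 than in no tumor 6 (0.1 CPM added to each), and 2 had at least 10-fold less. Over all genes with 50 counts the shares were 1.38 and 0.126%. The families were picked because they differ between these pads, so nothing is read from the members' numbers beside these shares. With 1 library on each side this comparison has no replicate check. The 18 comprised 7 members that went with Gpx5, 3 with Crisp1 and 8 with neither, among them Defb22, Lcn5, Wfdc13, Rnase9, Spink11 and Defb26. The 2 that were lower in no tumor 8 were Gpx5 itself and Spink5. Lcn8, Lcn9, Lcn10, Cst11 and Defb25 were at 97 counts or fewer in both. No tumor 8 was also the richest pad in sperm cell transcripts, with 42156 counts of the protamine Prm2 against 7538 in no tumor 6; whether that bears on the members was not tested.

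KPC IL6KO 5 had the lowest CPM of all 12 pads for 48 of the 84 members, and 28 members had at most 3 counts there. Its 84 members summed to 65299 counts, of which Crisp1 held 25302 and Wfdc2 13825. Wfdc2, a protease inhibitor of many secretory epithelia, was higher there than in any other pad. Rnase4 had 7824 counts there, its highest number in any pad. This was the pad with most seminal vesicle RNA, 76469 CPM summed over 6 genes against 0.401 to 23.6 in the other pads, and the part of that tissue in these values was not tested.

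Members lie in 19 clusters with gaps of at most 1 Mb between neighbours (GENCODE coordinates on GRCm38, the build the study aligned to as mm10). The Lcn cluster, chr2:25490845-25825537, held 6 genes that all went with Gpx5. In the Cst cluster, chr2:148768609-148830410, Cst13 at one end went with Crisp1 and the other 3 with Gpx5. Crisp3 and Crisp2, on either side of Crisp1 in chr17:40221777-40807003, both went with it, though both changed class without no tumor 8. Crisp4 lies on chromosome 1 with Defb18, Defb41 and Defb44-ps, chr1:18115191-18265138, of which all but Defb44-ps went with Gpx5. Gpx5, chr13:21286429-21292731, stands alone.

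Other clusters were mixed down to adjacent genes. In chr14:62977524-63058149 the order is Defb48, Defb47, Defb43, Defb30 and Defb42. Defb48, Defb47 and Defb42 went with Gpx5 and Defb43, in their midst, with Crisp1. Defb47 had 7801, 8, 24041 and 85 counts in the no tumor pads, 16330, 34940, 16019 and 17282 in the KPC pads and 186, 25890, 18 and 8 in the KPC IL6KO pads. In the 4 pads with fewest Defb43 counts, no tumor 5, KPC 5 and 6 and KPC IL6KO 6, Defb47 had 7801 to 34940, and in the 4 pads where Defb43 had 3221 to 12468 counts while Gpx5 had at most 1508, it had 8 to 85. No tumor 7 was high in both. In the defensin cluster chr2:152459055-152623053, 4 of 11 members went with Gpx5, 2 with Crisp1 and 5 with neither. The 12 Wfdc genes of chr2:164198863-164745931 gave 2, 5 and 5, and the 9 ribonucleases of chr14:51007751-51922773 gave 2, 2 and 5. Of the defensin clusters on chromosome 8, 1 had 1 of 7 members with Gpx5 and 4 with Crisp1, and the other 1 of 9 and 4.

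**Figure D5:**
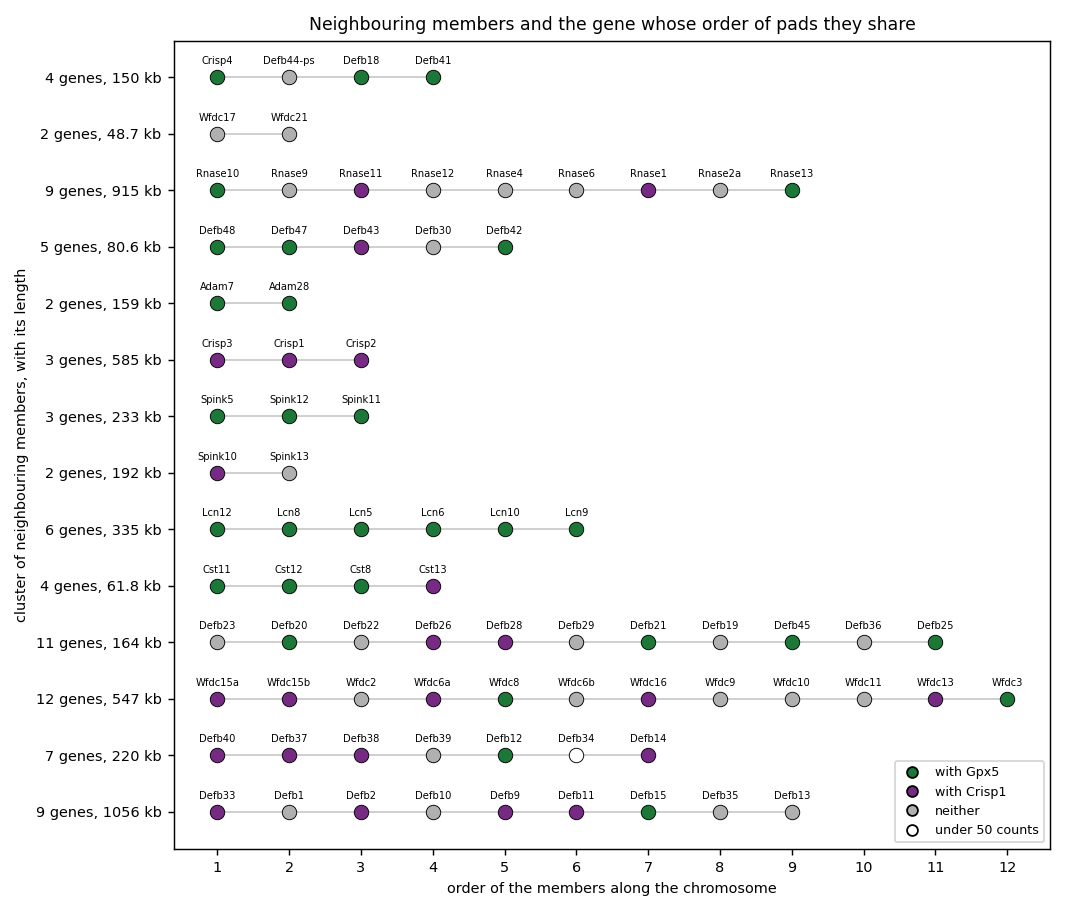
Clusters of at least 2 neighbouring members, 1 row each, with genes in their order along the chromosome (not to distance; the length of the cluster is at the left). Colours give the class: with Gpx5 (green), with Crisp1 (purple), neither (grey), under 50 counts (white). The 6 Lcn genes are all green, the row of Crisp3, Crisp1 (the reference itself) and Crisp2 is all purple, and Defb47 and Defb43 are adjacent with different colours.

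Genes of the epididymis that the naming rule leaves out were also found with either gene. Of 20 such genes listed 18 were in the table, of which 10 went with Gpx5, 4 with Crisp1 and 4 with neither, where 18.9 and 15.7% of all genes did so. Spag11b, a defensin-like sperm-binding peptide, had the most counts. Spag11b had 168526, 29, 277321 and 72 counts in the no tumor pads, 165711, 311468, 150142 and 128887 in the KPC pads and 744, 296225, 50 and 27 in the KPC IL6KO pads. The sperm-binding proteins Bsph1 and Bsph2 went apart, Bsph1 with Gpx5 and Bsph2 with Crisp1. Bsph2 had 15, 10, 3864 and 10706 counts in the no tumor pads, 0, 0, 620 and 1255 in the KPC pads and 0, 2, 7055 and 1826 in the KPC IL6KO pads. The 6 pads with 620 or more Bsph2 counts were those in which Defb22 was found. All 4 genes of the clear cells, the acid-secreting cells of the duct, went with Gpx5, for example Atp6v0d2 with 178 to 4899 counts. Among the 8 sperm and spermatid genes 7 went with Crisp1 and Prm2, at 46 pairs, was just outside.

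Among genes that are not members, the 5 that ordered the pads most like Gpx5 were 9230104L09Rik, Rcbtb1, Gper1, Gsk3a and Nedd4l, at 62 or 63 of 66 pairs over the 12 pads. 9230104L09Rik kept to the ratio as well, with 27 to 115252 counts and an SD of the log2 ratio to Gpx5 of 0.83. The other 4 varied far less than Gpx5; Gsk3a, a kinase found in most cells, had 2213 to 4815 counts. For Crisp1 the 5 were Psph, Slc52a3, Rab3c, Foxred2 and Clasp1, also at 62 or 63 pairs, and Slc52a3, a riboflavin transporter, had 189 to 5446 counts with an SD of the log2 ratio of 0.99. Of the 100 genes most like Gpx5 5 were members, and 5 of the 100 most like Crisp1. Members were 83 of the 16686 genes with 50 counts. Since the families were picked for this pattern, nothing is read from these numbers.

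The design compares groups of 4 mice. With edgeR's quasi-likelihood test over all 16962 genes, at a false discovery rate (FDR) of at most 0.05 and a fold change of at least 1.5, no member was called, nor any other gene, in KPC against no tumor (0.0% of all genes called), in KPC IL6KO against no tumor (0.0%) or in KPC against KPC IL6KO (0.0%). The smallest FDR of any member was 0.168, 0.385 and 0.664. At an unadjusted p under 0.05 there were 2 higher and 1 lower in KPC than no tumor, 3 higher and 1 lower in KPC IL6KO than no tumor, and in KPC against KPC IL6KO there were 0 higher and 2 lower. Of all genes 12.2, 9.34 and 6.26% had such a p. The edgeR likelihood ratio test and DESeq2 each called 1 member in the first comparison and 1 in the second, Wfdc17 in all 4 cases, and 0 in the third. These tests did call genes in fat: the likelihood ratio test called 2.43, 1.23 and 0.389% of all genes in the 3 comparisons and DESeq2 3.45, 1.68 and 0.737%, so that 1 of 84 members is no larger a share than that of all genes in the first 2. With the likelihood ratio test 268 genes were higher and 145 lower in KPC than no tumor, and 209 and 0 in KPC IL6KO than no tumor. The paper reports these same numbers for fat. The members' median log2 fold change was -0.55, -0.84 and 0.41, beside -0.10, -0.03 and -0.05 over all genes.

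Gpx5 averaged 18401 ± 21314 CPM (SD, n = 4) without tumor, 28643 ± 8320 with KPC and 13763 ± 27462 with KPC IL6KO tumors. Its log2 fold change, by edgeR's quasi-likelihood test with Benjamini-Hochberg adjustment, was 0.64 (SE 2.52, adjusted p = 0.936) for KPC and -0.42 (SE 2.51, adjusted p = 0.959) for KPC IL6KO against no tumor. Crisp1 averaged 8400 ± 5997, 2187 ± 2385 and 5647 ± 6025 CPM. Its log2 fold change was -1.94 (SE 1.30, edgeR adjusted p = 0.599) for KPC and -0.57 (SE 1.26, adjusted p = 0.88) for KPC IL6KO. The SD within a group exceeded the mean in 4 of these 6 cases.

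Wfdc17 had the smallest p. It is expressed by macrophages rather than known from the epididymis, and it entered by its name. Wfdc17 had 4.38, 9.65, 2.56 and 5.66 CPM in the no tumor pads, 241, 106, 62.3 and 77.8 in the KPC pads and 29.2, 8.5, 31.6 and 146 in the KPC IL6KO pads. Every KPC pad exceeded every no tumor pad. The log2 fold change was 4.45 (SE 0.87; adjusted p = 0.168 by the quasi-likelihood test, 0.000115 by the edgeR likelihood ratio test and 2.71e-06 by DESeq2) for KPC, and 3.28 (SE 0.83; adjusted p = 0.385, 0.0129 and 0.003) for KPC IL6KO. With only the 2 groups in the fit, which called 1.04% of all genes, the quasi-likelihood adjusted p for KPC was 0.0258. All 4 macrophage genes looked at (Adgre1, Csf1r, Cd68, Mrc1) were counted in every pad, Mrc1 with 1006 to 12066 counts, and their summed level was 95 to 311 CPM without tumor, 334 to 630 with KPC and 166 to 889 with KPC IL6KO tumors. S100a9 had 2 to 538 counts, and the 3 neutrophil genes in the table, S100a8, S100a9 and Retnlg, summed to 0.232 to 3.74, 10.8 to 38.2 and 1.23 to 22.2 CPM. The part of these cells in the Wfdc17 values was not tested.

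Other members with a p under 0.05 did not pass adjustment. Wfdc2 averaged 100 ± 61.4 CPM with KPC and 15.9 ± 17.1 without tumor, a log2 difference of 2.65 (SE 1.16, edgeR adjusted p = 0.397), and all KPC pads were above all no tumor pads. With KPC IL6KO tumors it averaged 104 ± 158 CPM, a log2 difference from no tumor of 2.70 (SE 1.16, edgeR adjusted p = 0.518), and the groups overlapped. Wfdc1, a secreted protein of stromal cells, averaged 3.47 ± 1.86 CPM with KPC, 7.88 ± 2.37 without tumor and 10.2 ± 3.32 with KPC IL6KO tumors. Each KPC pad was below each pad of both other groups, with adjusted p of 0.349 and 0.664 by edgeR. Defb10 was lower in all KPC IL6KO than in all no tumor pads, at 0.494 ± 0.55 against 3.11 ± 1.02 CPM (adjusted p = 0.475). Wfdc21 and, against KPC, Rnase1 completed the list with adjusted p of 0.45 and 0.779, their groups overlapping.

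The number of members whose groups did not overlap was 5, 1 and 4 of 84 in the 3 comparisons, from which nothing is read about the members beside the shares of all genes. KPC and no tumor pads did not overlap for 2 members that were higher (Wfdc17, Wfdc2) and 3 that were lower (Wfdc1, Spink10, Defb1), against 10.9% of all genes. KPC IL6KO and no tumor did not overlap for Defb10 alone, against 2.01% of all genes. KPC and KPC IL6KO did not overlap for 4 members, against 4.33% of all genes: Defb29, Lcn5 and Rnase9 were higher with KPC and Wfdc1 lower. Lcn5 had 3448 to 4359 CPM in the KPC pads and 1.79 to 2419 in the KPC IL6KO pads, a log2 difference of 2.61 (SE 1.99, edgeR adjusted p = 0.946). These comparisons share groups and are not independent of each other.

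Leaving out KPC IL6KO 6, the 1 pad of its group rich in Gpx5, raised the number of members at an unadjusted p under 0.05 from 1 to 33 lower in KPC IL6KO than no tumor, and from 0 to 33 higher in KPC than in KPC IL6KO, with 0 called at the adjusted threshold in either. The share of all genes rose as well, from 1.17 to 8.03% in the first and from 0.778 to 5.59% in the second. The pad is named here for its Gpx5 counts, and the families were picked because they differ between these pads. Members that order the pads alike are also not separate results. Nothing is therefore read from the members' numbers beside these shares. Without KPC IL6KO 6 the members' median log2 fold changes were -2.10 and 1.21. Without KPC IL6KO 5 they were -0.45 and 0.11, so that the medians depend on single libraries in both directions. Over all 12 libraries left out in turn they ranged from -2.10 to -0.45 for KPC IL6KO against no tumor, from 0.11 to 1.21 for KPC against KPC IL6KO, and from -0.76 to -0.33 for KPC against no tumor.

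In quadriceps 4 of the 84 members were among the 12831 genes of the table: Wfdc1, Wfdc17, Wfdc21 and Rnase4. The other 80 were not among its rows, in libraries of 19259763 to 74907810 counts. Wfdc17 had 30, 30 and 16 counts without tumor, 551, 89, 148 and 38 with KPC and 63, 67, 63 and 120 with KPC IL6KO tumors. Wfdc1 had 4983, 4100 and 1827 counts without tumor, 528, 525, 137 and 597 with KPC and 4251, 4480, 3679 and 4227 with KPC IL6KO tumors. Wfdc21 had 5 to 212 counts and Rnase4 794 to 2096. These raw counts in muscle were not tested between groups. Gpx5 and Crisp1 were among the rows not listed.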

How the data were processed

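Paired 75-base reads from RNA of epididymal fat (12 libraries) and quadriceps (11 libraries) were aligned by the authors with STAR to mm10, and uniquely mapped reads were assigned to genes with featureCounts 1.5.1, per the labels and the study's methods. The deposited values are raw counts per gene and library. Low-count genes were dropped before deposit by a rule not given in the sources used here, nor is it given whether counting used strand. The methods and the sample records name different library kits for adipose RNA (TruSeq Stranded mRNA and TruSeq RNA Access).

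Counts were scaled by TMM and tested with edgeR 4.0.16 (quasi-likelihood, filterByExpr, which removed no gene, 3 groups in 1 fit) over all 16962 fat genes, with Benjamini-Hochberg adjustment. A call required an FDR of at most 0.05 and a fold change of at least 1.5. Alternatives were DESeq2 1.42.0, the edgeR likelihood ratio test, RLE scaling, 2 other filters, a fit of 2 groups, a replicate block and leaving out each library. Mice are the replicates. Pad pairs tied in a member counted as not ordered alike. Ratios of counts had 0.5 added for their SD. Possible 75-base reads were compared among GENCODE transcripts. Gene positions are from GENCODE M21 and promoter windows from RefSeq, both on GRCm38.

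The members, lists and thresholds were chosen with earlier results of these data known. Named were Gpx5, Crisp1, Adam7, Adam28; per family the member with most counts in each class; the 8 members most like Gpx5 and the 8 most like Crisp1; those next to a threshold; and the 5 most alike genes outside. Other genes named were chosen after their values were seen.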

Additional observations from a re-analysis of the deposited data

Results flagged for a closer look

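Within groups of 4 pads, a pad was looked at again where its gap to the nearest other pad exceeded Dixon's 95% critical share of the group's range. Of 129 groups tested 17 met this. The critical share is set for about 1 in 20 by chance. The genes were picked in part for the order in which they placed these pads, so nothing is read from the number beside that rate. Pads of a group rich and poor in the same genes are counted here more than once. In 13 of the 17 the pad was KPC IL6KO 6, high: Gpx5 stood at 54957 CPM there against 4.69 to 85.8 in the other 3 pads of its group, Lcn8 at 7449, Rnase10 at 4988, Lcn9 at 4961, Defb20 at 4433, Adam28 at 3280, Cst11 at 2872, Lcn5 at 2419, Lcn10 at 1243, Spink11 at 887, Defb18 at 773 and Defb45 at 138 CPM. The summed level of all members that went with Gpx5 was 116921 CPM in that pad and 228 to 3610 in the others.

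The other 4 were single genes. Defb30 was low in KPC 5, at 124 CPM against 422 to 470. Cst13 was high in KPC 7, at 6.4 CPM against 0.325 to 0.859. Defb9 was high in KPC IL6KO 7, at 7.61 CPM against 0 to 1.13. Rnase1 was high in KPC IL6KO 8, at 39.6 CPM against 0.446 to 1.99.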

How the results depend on the processing

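Group comparisons. The number of members called was 0 in all 3 comparisons with edgeR's quasi-likelihood test. It was 1 in KPC against no tumor with DESeq2, with the likelihood ratio test and with only the 2 groups compared in the fit (3.45, 2.43 and 1.04% of all genes called), and 1 in KPC IL6KO against no tumor with DESeq2 and with the likelihood ratio test (1.68 and 1.23%), Wfdc17 each time. It was 0 in each comparison with RLE scaling, with no low-count filter, with at least 10 counts in 4 libraries (both of which tested the same 16962 genes) and without each library in turn. Among the 12 pairs of samples that share a number the correlation of deviations ranged from -0.539 to 0.65 and was over 0.1 in 7, and 0 of the 12 samples correlated best with their own number in both other groups, so the numbers were not taken to pair the mice. The fit with a replicate block called 0 members in each of the 3 comparisons, with medians of -0.56, -2.20 and 1.21.

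Pattern over pads. The number of members that went with Gpx5 was 32 and lay between 31 and 36 without each library in turn. The number that went with Crisp1 was 24 and lay between 20 and 28. It was 14 with at least 80% of the pad pairs required, and 58 where each member was given to the gene with the smaller SD of the log2 count ratio, a measure that leaves no member with neither; the number with Gpx5 was then 25. With raw counts 3 members changed class, and with CPM not corrected by TMM 5 did: Lcn5 and Spink12 went with neither, and Defb1, Defb44-ps and Rnase6 with Crisp1, giving 30 with Gpx5 and 27 with Crisp1. With either scaling 0 moved between Gpx5 and Crisp1. Leaving out 1 library changed the class of 19 members for at least 1 library, 1 of those that went with Gpx5, Lcn5, and 5 of those that went with Crisp1. Members with few counts, such as Crisp3, are ordered by single reads in the poorest pads.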
